A study of Homo sapiens with 414 samples.

Results

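Among LNCaP cells that had received a non-targeting siRNA, 43 had at least 1 sequencing read of SULT2B1 and 166 had none. LNCaP is a human prostate carcinoma line that responds to androgens. The 43 SULT2B1-positive control cells numbered 15, 14 and 14 in batches 1, 2 and 3, and the 166 SULT2B1-negative control cells numbered 61, 52 and 53. Both classes had the same treatment, with control siRNA from Dharmacon, and were harvested 48 h later, captured singly on a Fluidigm C1 plate and sequenced. Of the 401 cells used, the other 192 had received an siRNA against SULT2B1 from IDT (knockdown cells), and their values are set beside those of the control cells without a test. The positive and negative cells were selected on their SULT2B1 reads, so the level of SULT2B1 in the classes is a description and not a result. All cells are of 1 line, and the batches are not said to be separate cultures. With batch as a block or pair, p-values measure how the difference between the classes varied from batch to batch, which may be technical. That variation includes the sampling of only 14 or 15 positive cells per batch.

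SULT2B1 encodes a cytosolic sulfotransferase. Its isoform b moves a sulfate group from the donor PAPS onto cholesterol and related sterols, and cholesterol sulfate is best known from the skin barrier. In prostate cells the enzyme can also sulfate the androgen precursor dehydroepiandrosterone, and sulfation of oxysterols removes ligands of the nuclear receptor LXR. Gene counts do not tell isoform b from isoform a. The comparison asks which other transcripts differ between cells in which the endogenous SULT2B1 transcript was and was not found.

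SULT2B1, on the plus strand of chromosome 19 from 48552075 to 48599425 (ENSG00000088002; coordinates here are those of GENCODE 29 for build GRCh38), gave 593 reads in the 43 positive cells, 152, 109 and 332 in batches 1, 2 and 3. A positive cell had a median of 5, 7 and 22.5 of these reads in the 3 batches, with ranges of 1 to 34, 1 to 21 and 2 to 54. Scaled to the reads of each cell, the median was 4.89, 6.72 and 16.8 counts per 1000000 reads (CPM), and single cells lay between 0.751 and 43.8 CPM. Batch 3 was thus the highest by both measures, and the cells of the 3 batches overlapped. The reads were unevenly held: the 10 cells with most reads had 58.3% of the 593 and the 20 with most had 82.6%. Just inside the threshold lay 4 cells with 1 read and 3 with 2 reads, 12 cells had 1 to 4 reads, 31 had 5 or more, and every cell just outside had 0. Summed per batch, positive cells had 8.43, 6.66 and 18.1 CPM in batches 1, 2 and 3, negative cells had 0 by selection, and knockdown cells had 0.167, 0.293 and 0 CPM. In the knockdown cells 4 of 192 had a SULT2B1 read (2.08%), with 34 reads in all.

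**Figure D1:**
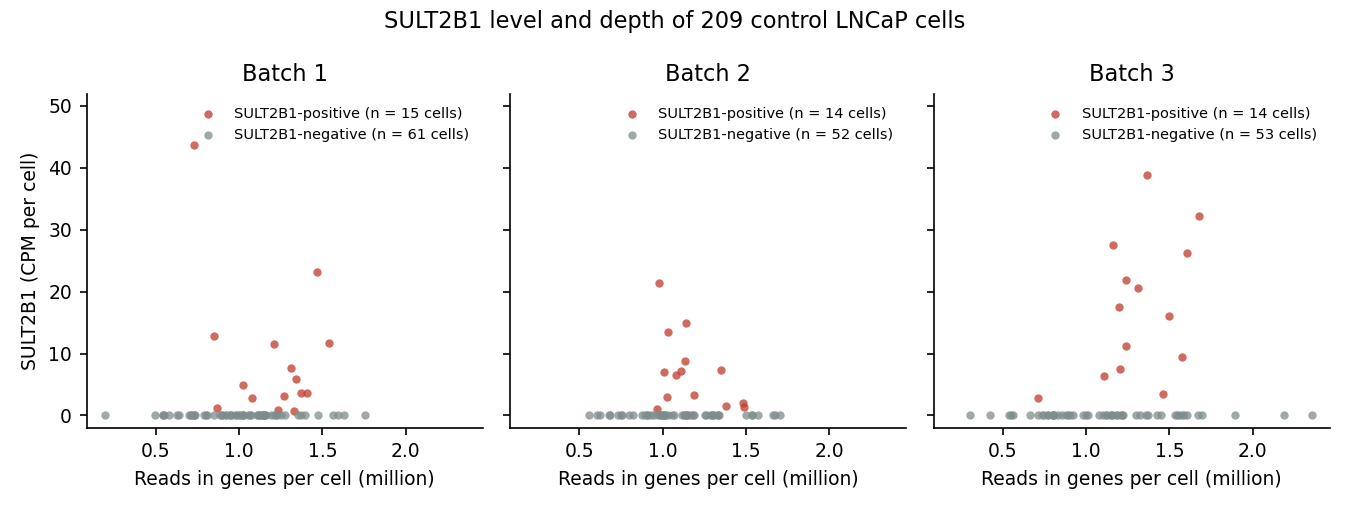
SULT2B1 level of each control cell (vertical axis, CPM per cell) against the depth of that cell (horizontal axis, reads in genes, scaled as labelled), by batch. Each point is a cell, positive cells in red and negative cells in grey at 0 CPM; the highest positive cell is at 43.8 CPM in batch 1, and batch 3 has the highest median, 16.8 CPM.

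The share of positive cells among all control cells was alike in the batches. It was 19.7% in batch 1, with a 95% Clopper-Pearson interval of 11.5 to 30.5, 21.2% in batch 2 (interval 12.1 to 33.0) and 20.9% in batch 3 (interval 11.9 to 32.6). Detection moved with depth. When the cells of each batch were ranked by their number of reads, 6 of 70 cells of the lowest tercile were positive (8.57%), 16 of 70 of the middle tercile (22.9%) and 21 of 69 of the highest (30.4%). Ranked by the number of genes detected, the shares were 12.7%, 20.3% and 28.99%. With each cell thinned to 100000 reads, 23 control cells still had a SULT2B1 read, 6, 6 and 11 by batch. By tercile of reads these were 2 of 70 cells (2.86%), 10 of 70 (14.3%) and 11 of 69 (15.9%). The lowest tercile thus had the smallest share at equal depth also. Depth therefore moved with membership of the positive class, and its part in the differences below was not tested beyond comparisons with matched cells. The matched cells given beside single genes were matched by number of genes, and their reads per cell still differed. Intervals and limits cover counting error over cells only, and cells are not replicates. Reads carry no molecular identifiers.

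Positive cells were deeper, held more genes and carried a smaller mitochondrial share than negative cells in each batch. Their median number of reads per cell was 1269303, 1120119 and 1275572 in batches 1, 2 and 3, against 1023682, 1060410 and 1118952 in negative cells. In the median positive cell 9422, 9008 and 8738 genes had a read, against 8440, 8683 and 8590 in negative cells. At 100000 reads per cell these medians were 6850, 6525 and 6215 against 6062, 6261 and 6086. Mitochondrial reads made up a median of 5.85%, 6.13% and 5.12% in positive cells, against 8.16%, 6.60% and 6.19% in negative cells. Each of these measures had the same direction in 3 of 3 batches, and the exact permutation test within batches gave p = 0.25, the smallest that 3 pairs allow. Without pairing, the exact p was 0.1 for reads, genes and mitochondrial share and 0.2 for genes at equal depth.

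Cells with over 20% mitochondrial reads were nearly all SULT2B1-negative. They were 1 of 15, 0 of 14 and 0 of 14 positive cells, where 0 cells is compatible with shares of up to 21.4%, and 20 of 61, 8 of 52 and 6 of 53 negative cells. In all, 1 of 43 positive cells (2.33%) and 34 of 166 negative cells (20.5%) exceeded that limit (exact permutation test within batches, p = 0.25, the smallest possible). Of the 35 cells over the limit 1 was positive (2.86%), and of the 174 other cells 42 were (24.1%). The cells over the limit were also poorer, with a median of 5422 genes and 805484 reads, against 8848 genes and 1151552 reads in the other cells. A high mitochondrial share is commonly read as a sign of a damaged cell, so the fits over all genes, with the medians of the gene lists, were also run without these 35 cells. Levels, sums and shares of cells with a read are given with all cells.

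**Figure D2:**
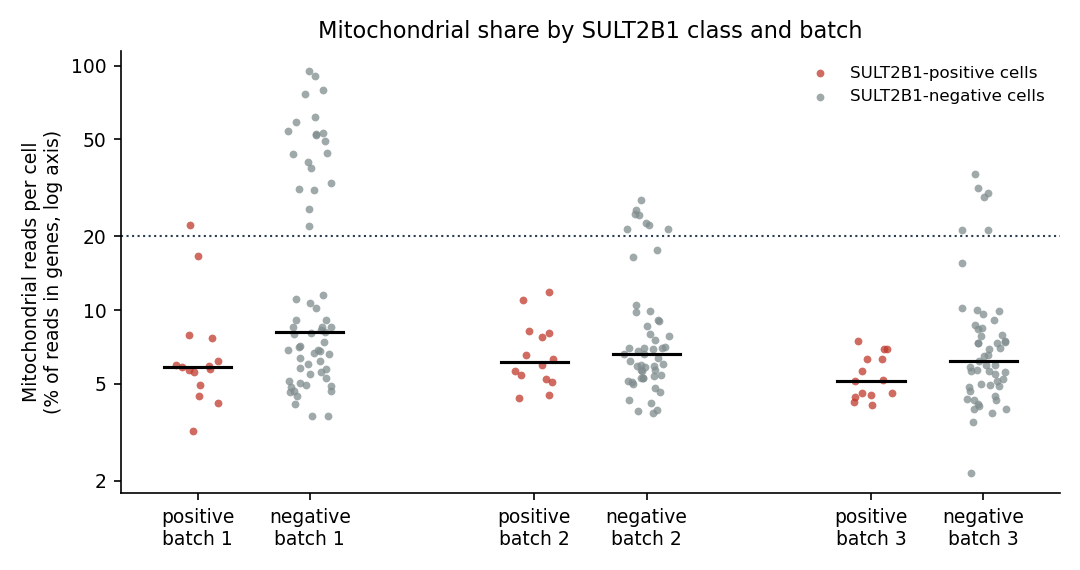
Mitochondrial share of the reads of each control cell (vertical axis, percent, log scale) for positive (red) and negative (grey) cells of batches 1, 2 and 3. Each point is a cell, black lines are medians and the dotted line marks 20%; 1 positive and 34 negative cells lie above it.

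Summed per class and batch, the positive libraries held between 16362726 and 18349719 reads and the negative libraries between 56893783 and 61358514. The 2 classes of a batch were compared with the edgeR quasi-likelihood test, with batch as a block and SULT2B1 itself left out. None of 19150 genes passed an adjusted p of 0.05 in either direction (0% called; smallest adjusted p = 0.874). At an unadjusted p of 0.05 there were 278 genes higher (1.45%) and 522 lower (2.73%) in positive cells. The common dispersion was 0.6405, a spread of 80.03% between libraries for a typical gene. DESeq2, a count test that models the spread differently, called 64 genes higher (0.374%) and 186 lower (1.09%) of 17129 with an adjusted p. In the 3 positive libraries 657 genes lay above every negative library (3.43%) and 1594 below every negative library (8.32%).

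The genes with lower values were mostly scarce ones. Over all genes tested the median log2 fold change of positive over negative cells was -0.17, and over the 3865 genes averaging 50 CPM or more it was 0.05. Of the 186 genes that DESeq2 called lower, 77 had 20 or fewer reads in the positive libraries together and 27 had none. Of the 64 that it called higher, 17 had over 50% of their positive reads in 1 cell. With negative cells matched 1 to 1 to the positive cells by their number of genes, DESeq2 called 90 genes higher and 91 lower, 25 and 44 of them shared with the calls above, and edgeR called none. In summed libraries more cells with a transcript and more reads of it per cell cannot be told apart, so shares of cells with a read are given where they bear on a gene. Over 17 alternatives of test, scaling, cells and batches the median of 19 of 25 gene lists took the other sign at least once. A bracket after a list's median gives its lowest to highest value over these alternatives. The medians given below stand beside these -0.17 and 0.05, and counts at an unadjusted p of 0.05 beside the shares of 1.45% higher and 2.73% lower.

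The 6 genes of lowest p among those higher in positive cells in every batch included a vacuolar pump subunit, a vesicle fusion factor and a cell surface peptidase. All are given as values, since each had an edgeR adjusted p of 0.874. ATP6V1C1 (ENSG00000155097, chromosome 8, 103021063 to 103073051, plus strand) encodes a subunit of the proton pump that acidifies lysosomes and endosomes. It had 139, 168 and 184 CPM in positive cells of batches 1, 2 and 3 and 76.3, 75.9 and 73.6 CPM in negative cells. The positive libraries all lay above the negative ones, by a log2 fold change of 1.10 (SE 0.193). A read was found in 95.3% of positive and 75.3% of negative cells, and DESeq2 called the gene with all negative cells (adjusted p = 0.00373) and with matched ones (adjusted p = 0.0203).

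NSF (ENSG00000073969, chromosome 17, 46590669 to 46757464, plus strand) encodes the ATPase that takes SNARE complexes apart after membrane fusion. It had 199, 189.8 and 226 CPM in positive and 102, 118 and 104 CPM in negative libraries, without overlap (log2 0.91, SE 0.158; DESeq2 adjusted p = 0.00900, and 0.117 with matched cells). NSF has a closely similar pseudogene, with which reads may be shared. MME (ENSG00000196549, chromosome 3, 155024124 to 155183729, plus strand), the surface peptidase neprilysin or CD10, had 514, 588 and 822 CPM in positive and 327, 362 and 526 CPM in negative libraries. These ranges overlapped, because batch 3 was the highest of both classes, but within each batch the positive library was the higher (log2 0.65, SE 0.101; DESeq2 adjusted p = 0.0345, and 0.177 with matched cells).

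E2F7 (ENSG00000165891, chromosome 12, 77021247 to 77065580, minus strand), a repressor of the E2F family that limits cell cycle genes, had 52.7, 44.5 and 26.8 CPM in positive and 10.6, 9.65 and 7.50 CPM in negative libraries. All positive libraries were above all negative ones (log2 2.102, SE 0.318; DESeq2 adjusted p = 5.19e-06, and 0.0860 with matched cells). The share of cells with an E2F7 read was closer, at 27.9% in positive and 20.5% in negative cells, and 1 cell held 22.0% of the positive reads. H4C3 (ENSG00000197061, chromosome 6, 26103876 to 26104310, plus strand), a replication-dependent histone gene whose near-copies may share its reads, had 1457, 1259.8 and 971 CPM in positive and 948, 848 and 775 CPM in negative libraries. All 3 positive values were the higher (log2 0.49, SE 0.0886), and DESeq2 did not call it (adjusted p = 0.140). The sixth, ENSG00000259450, for which no annotation was used here, had 43.9, 26.5 and 1.42 CPM in positive and 1.87, 1.25 and 0.185 CPM in negative libraries (log2 3.99, SE 0.586). Batch 3 was low in both classes, so the ranges overlapped, and a read was found in 20.9% of positive and 7.23% of negative cells.

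The 6 genes of lowest p among those lower in every batch were DSEL, RBBP6, FBXO34, AC004656.1, FHIP2A and ZNF614, also with an edgeR adjusted p of 0.874 each. In all 6 the positive libraries lay below every negative library. DSEL (ENSG00000171451, chromosome 18, 67506582 to 67516980, minus strand) encodes an epimerase that shapes dermatan sulfate, a sulfated sugar chain of proteoglycans. It had 72.9, 59.5 and 68.9 CPM in positive and 143, 169 and 197 CPM in negative libraries (log2 -1.35, SE 0.168). DESeq2 called it with all negative cells (adjusted p = 7.75e-05) and not with matched ones (adjusted p = 0.202). RBBP6 (ENSG00000122257, chromosome 16, 24537693 to 24572863, plus strand), a ubiquitin ligase that binds RB1 and p53, had 65.5, 71.3 and 68.1 CPM in positive and 132, 146 and 133 CPM in negative libraries (log2 -1.02, SE 0.163). The values within each class were close to each other, and DESeq2 called the gene with all (adjusted p = 0.00548) and with matched negative cells (adjusted p = 0.00337).

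The other 4 of these genes were scarcer. The F-box gene FBXO34 averaged 3.39 ± 0.931 CPM in positive and 22.7 ± 6.49 CPM in negative libraries (SD over 3 libraries; log2 -2.76), with a read in 46.5% and 44.6% of cells. FHIP2A, of a family of adaptors for the dynein motor, averaged 26.3 ± 3.96 and 78.9 ± 18.8 CPM (log2 -1.58), and the zinc finger gene ZNF614 averaged 10.7 ± 3.27 and 37.1 ± 11.8 CPM (log2 -1.81). AC004656.1 is annotated as a noncoding transcript that overlaps a gene on the same strand, so the reads of both may be mixed. It averaged 8.07 ± 1.16 CPM in positive and 36.0 ± 18.3 CPM in negative libraries (log2 -2.07). Of the 12 genes of both directions DESeq2 called 11, all but H4C3, and with matched negative cells it called 4, ENSG00000259450, ATP6V1C1, RBBP6 and ZNF614. Over all genes with an adjusted p, DESeq2 called 0.374% higher and 1.09% lower. The 12 were picked for a low p in the same libraries, so these DESeq2 calls are no separate support for them.

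**Figure D3:**
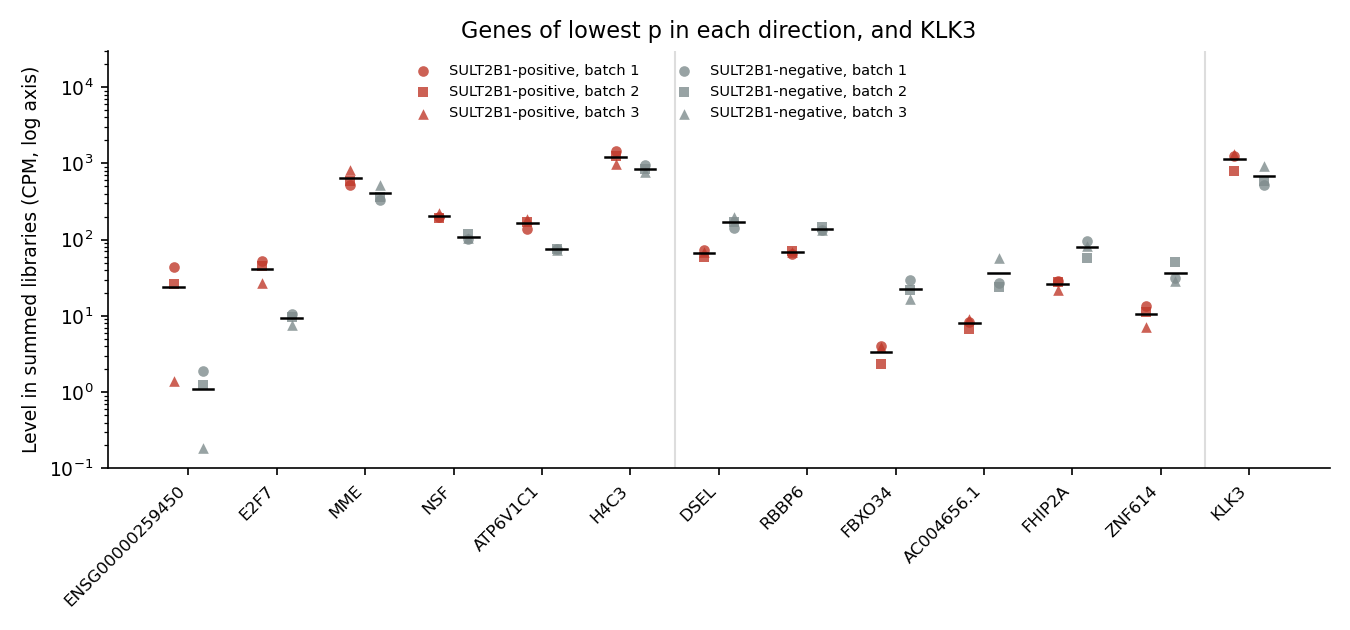
Level in each summed library (vertical axis, CPM, log scale) of the 6 genes of lowest p higher in positive cells, the 6 lower, and KLK3. Red symbols are positive and grey symbols negative cells of batches 1 (circle), 2 (square) and 3 (triangle), and black lines are means; NSF, ATP6V1C1, E2F7, H4C3 and the 6 lower genes do not overlap between classes.

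The positive class was also divided by the number of SULT2B1 reads, as a description with no test. Those reads chose the classes, and the genes given here had been picked for their difference between the classes. As 31 of the 43 positive cells had 5 or more reads, a dependence on read number cannot be read from these levels. ATP6V1C1 averaged 75.3 ± 1.44 CPM in the 166 cells with 0 SULT2B1 reads, 53.6 ± 6.09 CPM in the 12 cells with 1 to 4 and 211 ± 43.9 CPM in the 31 cells with 5 or more (SD over 3 batches). Of the positive cells, those with 5 or more reads had the higher average. With 1 to 4 reads ATP6V1C1 was lower than with 0 in each batch, at 46.9, 58.8 and 55.0 against 76.3, 75.9 and 73.6 CPM. MME averaged 405 ± 106, 335 ± 148 and 709 ± 122 CPM in the same order. RBBP6 averaged less from set to set, with 137 ± 7.81, 109 ± 36.0 and 59.7 ± 6.86 CPM, and so did DSEL, with 169.6 ± 27.2, 89.6 ± 17.7 and 60.0 ± 14.2 CPM. NSF averaged 108 ± 8.62, 118 ± 103 and 212 ± 46.6 CPM, with a wide spread in the middle set. The order of the sets differed among the leading genes. E2F7 averaged 9.25 ± 1.58, 52.1 ± 57.9 and 38.6 ± 25.1 CPM, and ENSG00000259450 averaged 1.10 ± 0.854, 34.8 ± 16.8 and 21.2 ± 19.4 CPM, both highest with 1 to 4 reads. AC004656.1, at 36.0 ± 18.3, 49.96 ± 76.5 and 6.63 ± 3.78 CPM, was also highest there. ZNF614 was lower in both positive sets than with 0 reads, at 37.1 ± 11.8, 12.2 ± 6.65 and 12.0 ± 5.05 CPM. H4C3 averaged more from set to set, at 857 ± 87.0, 1129.9 ± 898 and 1327 ± 479.7 CPM, with a wide spread in the positive sets. Like RBBP6 and DSEL, FBXO34 averaged less from set to set, with 22.7 ± 6.49, 6.997 ± 5.49 and 3.04 ± 0.412 CPM. So did FHIP2A, with 78.9 ± 18.8, 52.9 ± 45.9 and 27.3 ± 10.4 CPM. The set with 1 to 4 reads had only 1 cell in batch 3, so its value there is that of 1 cell; in that batch RBBP6 was at 149 CPM with 1 to 4 reads and at 133 CPM with 0.

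**Figure D4:**
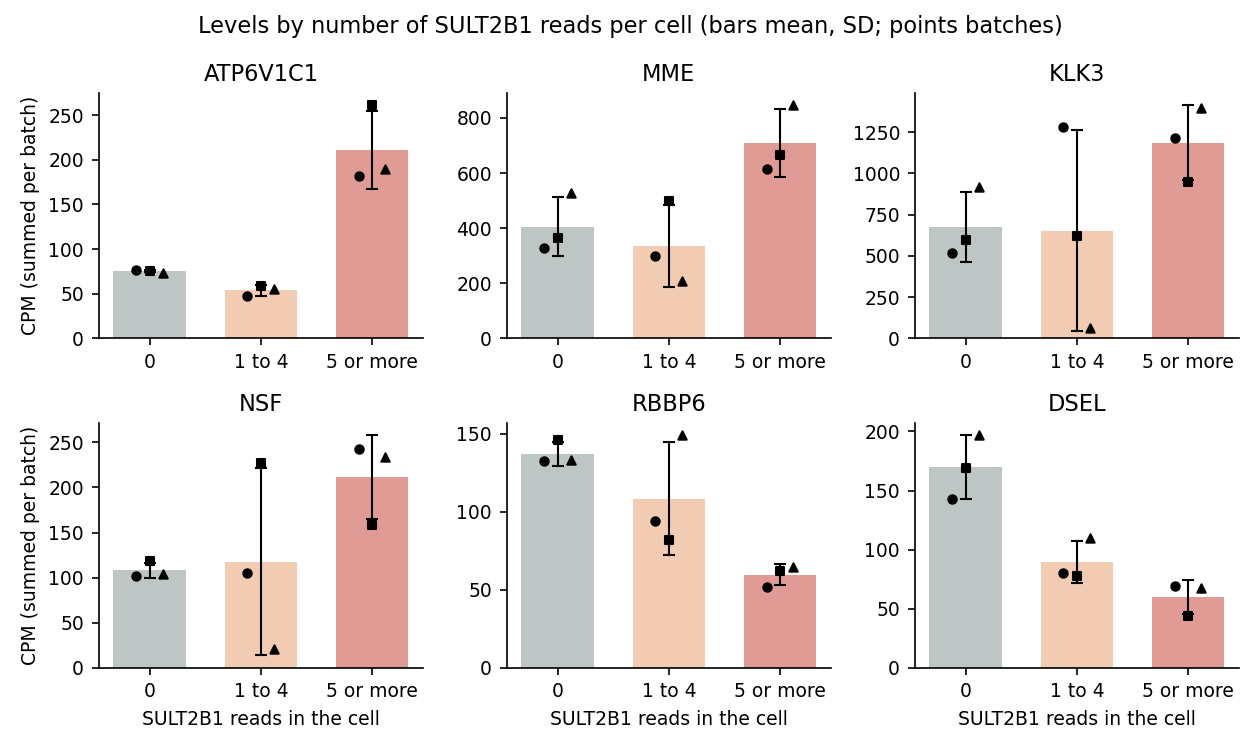
Levels of ATP6V1C1, MME, KLK3, NSF, RBBP6 and DSEL (vertical axes, CPM in libraries summed per batch) in control cells with 0, 1 to 4 and 5 or more SULT2B1 reads. Bars are means over 3 batches, whiskers the SD, and points the batches. ATP6V1C1 averaged 75.3 CPM in cells with 0 reads, 53.6 CPM with 1 to 4 and 211 CPM with 5 or more.

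KLK3, the gene of prostate-specific antigen and a classical androgen-induced gene, was higher in positive cells within each batch. It had 1234, 796 and 1347 CPM in positive and 514, 593 and 918 CPM in negative libraries of batches 1, 2 and 3 (ENSG00000142515, chromosome 19, 50854915 to 50860764, plus strand). The ranges overlapped, since the positive library of batch 2 was below the negative one of batch 3. The log2 fold change was 0.73 (SE 0.152; edgeR adjusted p = 0.874), and DESeq2 called the gene with all negative cells (adjusted p = 0.0421) and with matched ones (adjusted p = 7.70e-04). Knockdown cells had 246, 375 and 244 CPM. KLK3 is close in sequence to KLK2, and reads may be shared. KLK3 averaged 675 ± 214 CPM in cells with 0 SULT2B1 reads, 653 ± 610.2 CPM with 1 to 4 and 1186 ± 227 CPM with 5 or more.

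The other genes of the androgen response had mixed values. Of 22 listed genes tested, KLK3 was the 1 higher at an unadjusted p of 0.05 and 1 other was lower, none was called by edgeR, and 16 had a log2 fold change below 0 (median -0.20 [-0.29 to 0.17]). Among 14 genes of androgen synthesis and inactivation none passed an unadjusted p of 0.05, and their median was -0.30 [-0.36 to 0.07]. The steroid glucuronidation gene UGT2B17 averaged 219 ± 133 CPM in positive and 111 ± 35.7 CPM in negative libraries, higher in positive cells of batches 1 and 3 and lower in batch 2; its near-copies may share reads.

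No partner gene of the sulfotransferase was called by edgeR between the classes, and neither was any other of the 19150 genes tested. In the list of sulfotransferases and sulfate donor supply 18 of 22 genes were in the table and 12 were tested. None passed an unadjusted p of 0.05, and the median log2 fold change was 0.11 [-0.11 to 0.50]. PAPSS1, which makes the sulfate donor PAPS, had 146, 104 and 85.5 CPM in positive and 109.8, 79.5 and 125 CPM in negative libraries. BPNT2, a phosphatase of the spent donor, had 109, 124 and 119 CPM in positive and 113, 98.9 and 101 CPM in negative libraries, and the sulfate transporter gene SLC26A2 had 43.6, 15.0 and 40.3 and 20.5, 19.2 and 21.7 CPM. For all 3 the classes overlapped. SULT1E1, the estrogen sulfotransferase gene chosen after its values were seen, had a read in 0 of 43 positive and 0 of 166 negative cells, compatible with shares of up to 6.98% and 1.81%.

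Genes of cholesterol and fatty acid synthesis lay slightly above 0 without passing the edgeR test, which no gene passed, and LXR targets had both signs. Of 24 genes of cholesterol synthesis and uptake 19 had a log2 fold change above 0, the median was 0.17 [0.13 to 0.24], and TM7SF2 alone was higher at an unadjusted p of 0.05. TM7SF2, a sterol reductase of this pathway named here after its values were seen, had 46.6, 50.1 and 55.5 CPM in positive and 23.1, 29.3 and 43.8 CPM in negative libraries (log2 0.69; edgeR adjusted p = 0.874; DESeq2 adjusted p = 0.253). Its positive libraries lay above all negative ones. FDFT1, squalene synthase, averaged 769 ± 296 and 643 ± 204 CPM (log2 0.22), with batch 2 the highest of both classes. SCD, the stearoyl-CoA desaturase that SREBP1 and LXR induce, had 1228, 1595 and 1934 CPM in positive and 737, 1477 and 1494 CPM in negative libraries, higher in positive cells within each batch (log2 0.39; edgeR adjusted p = 0.874). Among 9 LXR receptors and targets the median was -0.01 [-0.18 to 0.56], and SCD was the 1 gene higher at an unadjusted p of 0.05. The sterol exporter ABCA1, an LXR target, had 0.333, 7.03 and 65.7 CPM in positive and 2.02, 14.8 and 21.9 CPM in negative libraries, with 1 cell holding 52.6% of its positive reads. Of 15 fatty acid synthesis genes 2 were higher at that threshold, and their median was 0.13 [0.02 to 0.37].

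All 13 protein genes of the mitochondrial genome had lower values in positive cells. Of the 13, 12 were lower at an unadjusted p of 0.05, against 2.73% of all genes tested, and 8 had positive libraries below every negative one, against 8.32%; edgeR called none. MT-CO1, a subunit of cytochrome c oxidase, had 11028, 12653 and 8862 CPM in positive and 32064, 16244 and 13955 CPM in negative libraries (log2 -0.86, SE 0.273; edgeR adjusted p = 0.874). The negative library of batch 1 was the highest by far. MT-CYB, MT-CO2 and MT-ND4, of respiratory complexes III, IV and I, had log2 fold changes of -0.72, -0.76 and -0.77. The median of the 13 was -0.77 [-1.06 to -0.01], and within batches 1, 2 and 3 the median difference of log2(CPM + 1) was -1.42, -0.35 and -0.56. Without the cells over 20% mitochondrial reads the median was -0.03, and with negative cells matched by genes with a read it was -0.03. The first of these values follows in part from its construction, since those cells were removed by their mitochondrial reads. The second is not free of this, since cells over the limit had a median of 5422 genes, against 8848 in the others. Neither value is a test of the difference. Nuclear copies of mitochondrial DNA may share some of these reads.

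Nuclear genes of the respiratory chain had medians slightly above 0. Of 31 nuclear respiratory chain genes 22 had log2 fold changes above 0 (median 0.11 [0.03 to 0.18], and 0.08 without the cells over 20% mitochondrial reads), and 2 were higher at an unadjusted p of 0.05. Both belong to succinate dehydrogenase, complex II of the chain, and are named after their values were seen. SDHC, a membrane anchor of the complex, had 68.3, 76.3 and 83.5 CPM in positive and 28.8, 34.2 and 54.0 CPM in negative libraries (log2 1.00, SE 0.232; edgeR adjusted p = 0.874). DESeq2 called it with all negative cells (adjusted p = 0.0289) and not with matched ones (adjusted p = 0.647). SDHD, the other anchor, had 449, 452 and 449 CPM in positive and 325, 358 and 339 CPM in negative libraries (log2 0.39, SE 0.101; DESeq2 adjusted p = 0.311). Neither gene overlapped between the classes.

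Of 22 genes of glycolysis and hypoxia 3 were higher and none lower at an unadjusted p of 0.05, with a median of 0.14 [-0.0046 to 0.20]. The 3 were PGK1, GPI and GAPDH, glycolytic enzymes named after their values were seen. PGK1 had 1537, 1003 and 1161 CPM in positive and 729, 746 and 992 CPM in negative libraries, without overlap (log2 0.56, SE 0.148; DESeq2 adjusted p = 0.165), and GPI had 1057, 1475 and 1554 and 759, 1138 and 1386 CPM (log2 0.32), with overlap. LDHA, which turns pyruvate to lactate, had 5321, 3708 and 4638 CPM in positive and 2690.1, 3366 and 4953 CPM in negative libraries, higher in positive cells of batches 1 and 2 and lower in batch 3 (log2 0.33; edgeR adjusted p = 0.880). Of 35 cytosolic ribosomal protein genes 29 had log2 fold changes above 0 and 4 were higher at that threshold (median 0.11 [0.0027 to 0.18]). RPS3, 1 of these 4 and named after its values were seen, averaged 1070.3 ± 24.2 CPM in positive and 893 ± 109.6 CPM in negative libraries (log2 0.25). Ribosomal protein genes have many processed pseudogenes, which may take some of their reads.

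The study asks how SULT2B1 affects cell death induced by TNF. No gene of that pathway was called by edgeR, but neither was any other of the 19150 genes tested. The lack of calls is therefore not particular to this pathway. Of 19 TNF and NF-kB response genes none passed even an unadjusted p of 0.05 in either direction (median 0.05 [-0.42 to 0.65]). NFKBIA, the inhibitor that NF-kB induces, had 38.1, 53.5 and 41.5 CPM in positive and 37.6, 33.9 and 28.3 CPM in negative libraries. The positive values were the higher throughout (log2 0.39, SE 0.298, between 0.072 and 1.37 over the alternatives; edgeR adjusted p = 0.918). Knockdown cells had 116, 124 and 121 CPM. Of 31 death receptor genes 1 was higher and 1 lower at an unadjusted p of 0.05 (median -0.14 [-0.17 to 0.17]). Named after their values were seen, the TNF receptor gene TNFRSF1A had 3.66, 8.62 and 19.8 CPM in positive and 7.09, 9.81 and 13.1 CPM in negative libraries, and CASP8, the initiator caspase of the pathway, had 19.5, 54.3 and 28.3 and 39.6, 51.6 and 53.8 CPM. Both overlapped between the classes.

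Of 16 genes of the BCL2 family none was higher and 1 lower at an unadjusted p of 0.05 (median -0.22 [-0.54 to 0.20]). BNIP3L, a receptor for the removal of mitochondria, had 591, 749 and 1055 CPM in positive and 546, 482 and 792 CPM in negative libraries (log2 0.37; edgeR adjusted p = 0.874), the higher in positive cells of every batch. Among 25 p53 targets GDF15, a secreted stress cytokine, was the 1 gene past an unadjusted p of 0.05. It had 173, 83.2 and 154 CPM in positive and 70.0, 33.7 and 161 CPM in negative libraries, of which batch 3 went slightly the other way (log2 0.84; edgeR adjusted p = 0.874). The list's median was 0.19 [-0.21 to 0.58].

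Interferon-induced genes that were read in most knockdown cells were read in few positive and few negative control cells. An IFIT2 read was found in 11.6% of positive, 11.4% of negative and 95.3% of knockdown cells, and an IFIT1 read in 9.30%, 6.02% and 83.9%; both genes encode proteins that bind viral RNA. RIGI, the sensor of short double-stranded RNA, was read in 34.9%, 36.7% and 88.0% of cells. RSAD2, the gene of the antiviral enzyme viperin, was read in 0 of 43 positive and 0 of 166 negative cells and in 29.2% of knockdown cells. The 4 were chosen after their values were seen. Of the 31 interferon response genes tested 3 were lower and none higher at an unadjusted p of 0.05, and the median log2 fold change was -0.45 [-1.02 to -0.13]. The 3, named after their values were seen, were HERC5, HERC6 and UBE2L6, each averaging under 20 CPM in control cells; HERC5, a ligase for ISG15, was read in 1 of 43 positive and 23 of 166 negative cells. The summed level of the list was 404, 357 and 324 CPM in positive, 366, 501 and 418 CPM in negative and 8542, 6964 and 8048 CPM in knockdown libraries of batches 1, 2 and 3. STAT2, a transcription factor of this response, had 45.2, 87.9 and 108 CPM in positive and 87.9, 132 and 102 CPM in negative libraries (log2 -0.50; edgeR adjusted p = 0.880).

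Cell cycle genes differed in direction between batches. The summed level of 53 G2 and M phase genes was 8432, 11478 and 3880.3 CPM in positive and 6729, 9327 and 5175 CPM in negative libraries, so positive cells were the higher in batches 1 and 2 and the lower in batch 3. The 44 S phase genes summed to 3504, 4338 and 1947 CPM in positive and 2983, 3083 and 2689 CPM in negative libraries, with the same order. Their median log2 fold changes were -0.02 [-0.28 to 0.22] for G2 and M phase and 0.05 [-0.23 to 0.32] for S phase. At an unadjusted p of 0.05, 2 of 53 were higher and 0 lower, and 3 of 44 were higher and 1 lower. CBX5, a heterochromatin protein, had 764, 1151 and 698 CPM in positive and 569, 811 and 557 CPM in negative libraries, the higher in positive cells of each batch (log2 0.40, SE 0.0960; edgeR adjusted p = 0.874). The replication helicase gene MCM5, named after its values were seen, had 43.2, 28.7 and 13.5 CPM in positive and 9.05, 11.3 and 7.03 CPM in negative libraries, without overlap (log2 1.49, SE 0.418; DESeq2 adjusted p = 0.0352, and 0.648 with matched cells).

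The luminal identity of the line was present in both classes. All 13 luminal prostate markers had reads, summed to 4284, 4476 and 5218 CPM in positive and 4241, 5255 and 5490.0 CPM in negative libraries, with a median log2 fold change of 0.01 [-0.19 to 0.09]. FOXA1, a pioneer factor of luminal cells, had 276, 127 and 371 CPM in positive and 206, 206 and 291 CPM in negative libraries, which overlapped. Basal markers summed to 75.2, 50.4 and 57.3 CPM in positive and 79.2, 58.2 and 107 CPM in negative libraries, and of 7 in the table KRT5 and TP63 had no read in the 43 positive cells, while all 7 had reads in the 166 negative cells. Neuroendocrine markers summed to 36.4, 19.7 and 19.8 and 12.6, 14.9 and 7.87 CPM, with CHGA, INSM1, SCG2 and POU3F2 at 0 in positive and SCG2 at 0 in negative cells. Fewer cells give fewer chances of a read, so these zeros are not compared. Mesenchymal markers summed to 282, 231 and 214 CPM in positive and 180.2, 174 and 314 CPM in negative libraries, most of it FN1, and blood and endothelial markers to 6.93, 2.57 and 9.97 and 1.99, 0.510 and 11.9 CPM, with PTPRC at 0 in both classes. The neuroendocrine sum was higher in positive cells of every batch, and ENO2, a neuronal enolase, made up most of it in batches 1 and 3, with 35.3, 4.58 and 19.7 CPM in positive and 11.6, 11.1 and 3.16 CPM in negative libraries. In batch 2 most of it was NCAM1, a neural adhesion molecule, at 15.1 CPM in positive and 3.69 CPM in negative cells, with 99.6% of its positive reads in 1 cell. The part of these markers in the other differences was not tested.

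**Figure D5:**
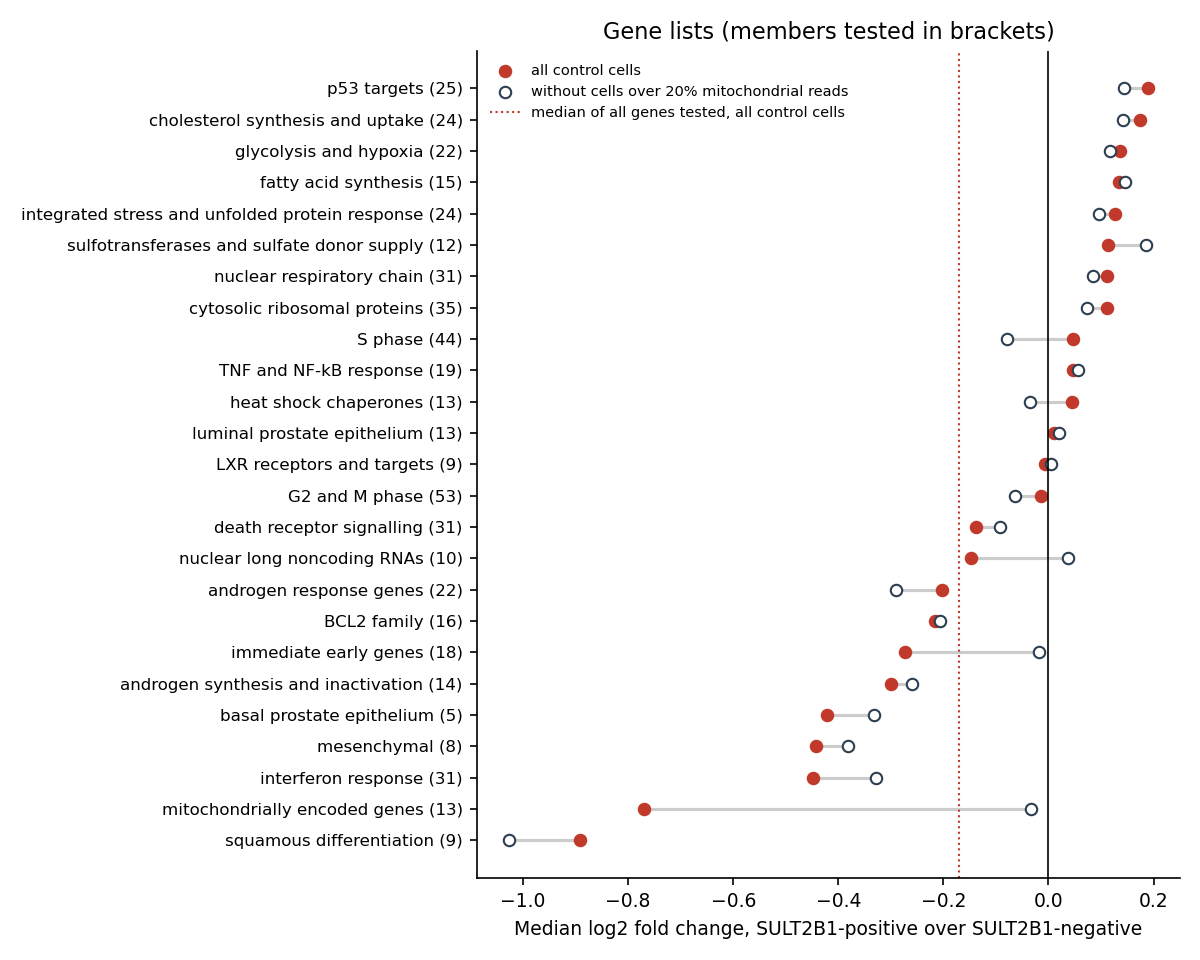
Median log2 fold change of positive over negative cells (horizontal axis) of the members of each gene list tested, with all control cells (filled) and without the cells over 20% mitochondrial reads (open). The dotted line is the median of all genes tested, -0.17; the mitochondrially encoded genes are at -0.77 with all cells and at -0.03 without those cells.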

How the data were processed

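Gene counts of single LNCaP cells were analysed. The authors deposited raw whole-number read counts for each gene in each cell, with no molecular identifiers. Tools named in the submitters' processing notes are HTSeq 0.6.1, TopHat2 2.1.0, FastQC 0.11.3 and edgeR 3.2.2, with genome build GRCh38.p3. Annotation release and strand setting: not given in the sources used here. Per the labels' protocols, capture sites with 0 or several cells and dye-positive cells were excluded, which is how doublets were treated. Cells were matched to columns by their labels, 4 columns of values were not used, and 401 of 414 samples entered. The table has 36135 genes, of which 987 have no name; coordinates come from GENCODE 29.

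Counts were summed per class and batch, because cells are not replicates. CPM are counts scaled to the size of the summed library. Fold changes come from edgeR 4.0.16 (limma 3.58.1, R 4.3.3), by the quasi-likelihood test with robust dispersions and batch as a block. Scaling was TMM (factors 0.924 to 1.04), filtering was filterByExpr with a minimum count of 10, and Benjamini-Hochberg adjustment covered 19150 genes. A check on simulated data required recovery of set changes only at a dispersion far below that of these data. It therefore does not show how many true differences would be called here. The label word Batch pairs the libraries; deviations of same-batch libraries from their class means correlated by 0.0544, 0.0890 and 0.0528. DESeq2 1.42.0 was an alternative; it gave 17129 genes an adjusted p. Medians per cell were compared by two-sided exact permutation tests (scipy 1.17.1, Python 3.11.15). The named genes are SULT2B1, the 6 of lowest p in each direction with the same sign in all 3 batches and at least 5 CPM, and up to 4 members of each of 27 lists; others are marked as chosen after their values were seen, and 3 named genes are not reported here. The positive cells and the lists were chosen with earlier results of these data known. The lists cover sulfation, sterol, lipid, androgen, TNF, death, BCL2, interferon, p53, cell cycle, stress, energy, ribosomal, noncoding RNA and cell type marker genes. Alternatives changed the test, scaling, filter, depth per cell, cells compared and batches.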

Additional observations from a re-analysis of the deposited data

How the results depend on the processing

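With edgeR or limma, 0 genes were called under each alternative run: no replicate block (smallest adjusted p = 0.686), DESeq2 size factors, no filter on low counts, equal weight per cell, voom quality weights, cells thinned to 100000 reads, negative cells matched by reads or by genes with a read, without cells under 500000 reads or over 20% mitochondrial reads, positive cells with 5 or more SULT2B1 reads, and without each batch. Genes at an unadjusted p of 0.05 numbered between 529 (without batch 2) and 1272 (voom). DESeq2 called 250 genes, 181 with matched negative cells (90 higher and 91 lower) and 211 without cells over 20% mitochondrial reads (61 and 150); the last 2 settings were chosen after seeing the data. Fold changes were followed over the alternatives for 32 of the named genes. Of these 32, those other than MT-CYB and MT-CO2 kept their sign under all alternatives run. For the remaining genes given with values, among them PAPSS1, UGT2B17, ABCA1 and FOXA1, this was not followed. MT-CYB was at 0.013 without cells over 20% mitochondrial reads (0.038 by DESeq2) and MT-CO2 at 0.0082 with negative cells matched by genes (0.0034 by DESeq2). The median of the mitochondrially encoded genes was -0.40 without batch 1 and -1.05 without batch 2. Medians of 18 of 25 lists moved by more than their spread between batches under at least 1 alternative. The mean difference in reads, genes and mitochondrial share per cell kept its direction in the alternatives run for them. These leave out the matched cells. Matching by reads brought depth close, but matching by genes did not make it alike. Positive cells had medians of 1269303, 1120119 and 1275572 reads in batches 1, 2 and 3. Negative cells matched by genes had medians of 1146605, 1269523 and 1055634 reads. About 15 positive cells per batch limit what a summed library can show of scarce transcripts.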

Other observations

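SULT2B1 is known from keratinizing skin, but genes of squamous differentiation were scarce in both classes. Of 26 listed genes 17 were in the table and 9 were tested; 8 of the 9 had log2 fold changes below 0 (median -0.89 [-1.53 to 0.06]) and none passed an unadjusted p of 0.05. ABCA12, a lipid transporter of the skin barrier, had 4.32, 11.6 and 39.3 CPM in positive and 18.4, 4.82 and 6.21 CPM in negative libraries, with 1 cell holding 56.9% of the positive reads. KRT10, a keratin of differentiating skin, had 14.2, 11.9 and 5.34 CPM in positive and 13.2, 16.5 and 14.2 CPM in negative libraries, which overlapped.

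No stress gene was called by edgeR between the classes, and neither was any other of the 19150 genes tested. Of 24 genes of the integrated stress and unfolded protein response 19 had log2 fold changes above 0 (median 0.13 [-0.01 to 0.36]), with 1 higher at an unadjusted p of 0.05. The chaperone list had a median of 0.04 [-0.08 to 0.11] over 13 genes, and HSPA8, its most abundant member, had 2780.0, 4128 and 2863 CPM in positive and 2837, 3334 and 3047 CPM in negative libraries. Immediate early genes had a median of -0.27 [-0.51 to 0.08] over 18 genes, and -0.02 without the cells over 20% mitochondrial reads; FOS had 348, 193 and 565 CPM in positive and 402, 244 and 305 CPM in negative libraries. Nuclear long noncoding RNAs had a median of -0.15 [-0.20 to 0.06] over 10 genes, and MALAT1 had 16327, 9846 and 21837 CPM in positive and 22259.8, 11005 and 20298 CPM in negative libraries. The basal, neuroendocrine and mesenchymal lists had medians of -0.42 [-1.10 to 0.64], -1.15 and -0.44 [-1.09 to 0.26] over 5, 2 and 8 genes; with negative cells matched by genes the neuroendocrine median was 1.72. The 1 blood and endothelial gene tested, VWF, had a log2 fold change of 1.32.

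Among the positive cells of a batch the SULT2B1 level in CPM had Spearman correlations of -0.0036, -0.26 and 0.39 with the reads of the cell in batches 1, 2 and 3 (15, 14 and 14 cells), and of -0.19, -0.18 and -0.064 with its number of genes. These describe cells of shared libraries that differ in depth.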
